A study of Canis lupus familiaris with 12 samples.

Results

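The peroxisome proliferator-activated receptors (PPARs) PPARA, PPARD and PPARG and the mitochondrial carrier UCP3 were followed in MDCK (Madin-Darby canine kidney) cells, a line of dog kidney tubule epithelium, after 24 h at pH 7.0 or pH 7.4. The members were all gene probes of the array whose identifier was a RefSeq transcript of 1 of these 4 dog genes. This gave 8 of the 43603 gene probes, 2 for each gene: A_11_P0000019816 and A_11_P050901 for PPARA (NM_001003093), A_11_P0000026350 and A_11_P055031 for PPARD (NM_001048102), A_11_P051166 and A_11_P0000020245 for PPARG (NM_001024632), and A_11_P053491 and A_11_P0000019772 for UCP3 (NM_001003047). The first probe of each pair gave the higher mean signal and is called the brighter one. Both probes of a pair report the same transcript and are not replicates of each other.

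Confluent cells had been moved to serum-free DMEM/Hams-F-12 at pH 7.4 on the day before the experiment, and were then divided between media of pH 7.4 (the control) and pH 7.0, the latter made with less bicarbonate. There were 3 biological replicates with separate RNA extractions, each with 1 RNA per pH, and each RNA was hybridised to 2 one-colour (Cy3) Agilent arrays, so that 12 arrays stood for 6 RNAs. The labels do not state which arrays share an RNA: arrays 1 and 2, 3 and 4, and 5 and 6 of each pH were taken as biological replicates 1, 2 and 3, and the arrays of each such replicate lay together on 1 slide. All RNAs came from 1 cell line, so that the spread between replicates is the spread between cultures or extractions of that line. The study's question was about genes of proinflammatory cytokines in acid medium, and the PPARs are described here from the same arrays.

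The PPARs are nuclear receptors that are activated by fatty acids and their derivatives and that bind DNA together with a retinoid X receptor. PPARA is best known as a regulator of fatty acid oxidation in liver and kidney tubule, PPARD is expressed in most tissues and also regulates fatty acid use, and PPARG is best known as the regulator of fat cell formation. PPARs can also hold down the transcription of inflammatory genes. UCP3 is a carrier of the inner mitochondrial membrane found mainly in skeletal muscle, and its gene is a known target of PPARs.

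A value below is the log2 of a probe's processed signal, less the 75th percentile of its array, so that 0 is the level of that percentile. The value of an RNA is the mean of its 2 arrays, and a change is pH 7.0 minus pH 7.4 within a biological replicate. The 75th percentile lay at a signal between 410.2 and 943.9. Of the gene probes, 49.4% to 54.1% were well above background on the 4 arrays of biological replicate 2, against 62.2% to 70.4% on the other arrays. Each biological replicate had its own slide and scan date. No slide effect can therefore be told apart from a replicate effect, while both pH groups lay on every slide. Feature Extraction, the program that read the scans, called both probes of PPARD and both of PPARG well above background on all 12 arrays. It did so on 10 and 2 arrays for the probes of PPARA, and on 8 and 6 for those of UCP3. No member probe was saturated on any array. A probe had to be so called on 6 or more of the 12 arrays to be tested. This limit was met by 27136 probes, among them 7 member probes, and missed by the dimmer PPARA probe.

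PPARD was higher at pH 7.0 in all 3 biological replicates by both of its probes, by about 1.45-fold, but it did not pass the threshold over all probes. The brighter probe stood at -0.17, -0.11 and 0.48 in the pH 7.0 RNAs of biological replicates 1, 2 and 3, and at -0.60, -0.43 and -0.38 in their pH 7.4 RNAs. Every pH 7.0 RNA lay above every pH 7.4 RNA, so that the groups did not overlap, and biological replicate 3 at pH 7.0 lay highest. The dimmer probe stood at -0.32, 0.08 and 0.15 at pH 7.0 and at -0.64, -0.36 and -0.71 at pH 7.4. Its groups did not overlap either.

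The PPARD changes by biological replicate were 0.43, 0.32 and 0.86 with the brighter probe, and 0.32, 0.44 and 0.86 with the dimmer one. The brighter minus the dimmer probe came to 0.10, -0.12 and 0.002, so that the probes gave nearly the same change in every replicate. The estimates were 0.54 ± 0.23 (SE, n = 3 pairs; 95% interval 0.02 to 1.05) and 0.54 ± 0.23 (95% interval 0.03 to 1.05), which correspond to a 1.45-fold higher signal in both cases. In limma's moderated test, two-sided and with Benjamini-Hochberg adjustment over the tested probes, the adjusted p was 0.392 and 0.385. The unadjusted p was 0.043 and 0.041.

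The PPARD values have to be read against the other probes. At an adjusted p under 0.05, 0 of the 27136 tested probes were called higher (0%) and 0 lower (0%). At an unadjusted limma p under 0.05, 1758 probes (6.48%) were higher and 1566 (5.77%) lower. Groups of RNAs that did not overlap, with pH 7.0 the higher, were found for 1215 probes (4.48%), and the reverse for 980 (3.61%). In all 3 biological replicates 18% of the probes were higher and 15.7% lower. A change at least as large as the smaller of both PPARD changes was seen for 1939 probes (7.15%). Among the 225 named genes with at least 2 tested probes, 8 (3.56%) had non-overlapping groups with pH 7.0 the higher by every tested probe, and PPARD was 1 of these. It was also 1 of the 20 (8.89%) that were higher at an unadjusted limma p under 0.05 by every tested probe. Probes of opposite sign were found for 50 of these genes (22.2%).

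Over single arrays the groups of PPARD overlapped for both probes. The 6 arrays at pH 7.0 ran from -0.36 to 0.57 with a median of -0.02 for the brighter probe, and those at pH 7.4 from -0.75 to -0.35 with a median of -0.42. For the dimmer probe, the arrays ran from -0.46 to 0.26 (median 0.05) at pH 7.0 and from -0.77 to -0.31 (median -0.60) at pH 7.4. Duplicate arrays of an RNA differed by 0.05 to 0.39 for the brighter probe and by 0.05 to 0.28 for the dimmer one. Duplicate arrays measure the error of the hybridisation and not the spread between cultures. The largest difference between duplicates of the brighter probe, 0.39, was at pH 7.0 in biological replicate 1, where the change was 0.43. This difference exceeded the change of 0.32 in biological replicate 2. The duplicates of biological replicate 2 itself differed by 0.10 at pH 7.0 and by 0.05 at pH 7.4.

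**Figure D1:**
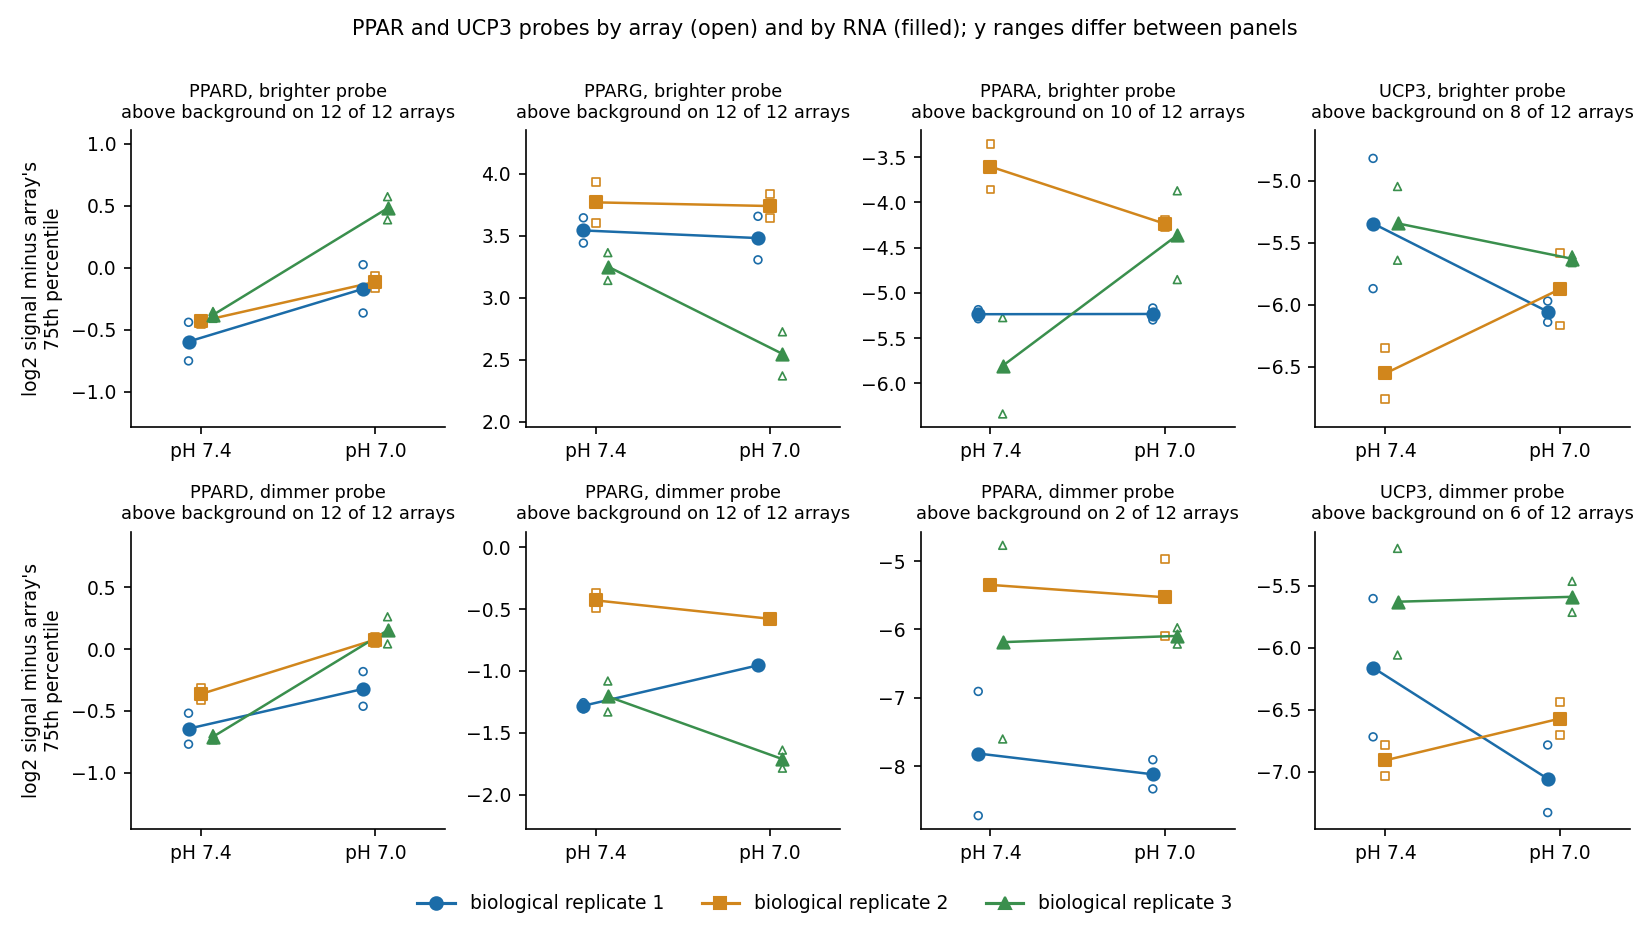
Log2 signal less the 75th percentile of the array (y axis) at pH 7.4 and pH 7.0 (x axis) for the 8 probes of PPARD, PPARG, PPARA and UCP3, with open symbols for single arrays, filled symbols for the mean of the 2 arrays of an RNA, and a line for each biological replicate; y ranges differ between panels. All 3 lines slope upward in both PPARD panels, while in the other panels the lines lie close to level or differ in slope between replicates.

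PPARG did not show the difference seen for PPARD. Its brighter probe stood at 3.48, 3.74 and 2.55 in the pH 7.0 RNAs of biological replicates 1, 2 and 3 and at 3.54, 3.77 and 3.25 in their pH 7.4 RNAs. The groups overlapped, and only biological replicate 3 at pH 7.0 stood apart, lower than the other 5 RNAs. The changes were -0.06, -0.03 and -0.70, for an estimate of -0.27 ± 0.24 (SE, n = 3 pairs; 95% interval -0.80 to 0.27; limma adjusted p = 0.712). Duplicate arrays of an RNA differed by 0.20 to 0.36 on this probe, more than the changes of biological replicates 1 and 2.

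The dimmer PPARG probe stood at -0.95, -0.58 and -1.71 at pH 7.0 and at -1.28, -0.43 and -1.21 at pH 7.4. Biological replicate 3 at pH 7.0 was again the lowest RNA, and biological replicate 1 went the other way. The changes of 0.33, -0.15 and -0.51 averaged -0.11 ± 0.24 (SE, n = 3 pairs; 95% interval -0.65 to 0.44; limma adjusted p = 0.904). On this probe duplicate arrays differed by 0.01 to 0.25, less than the changes of biological replicates 1 and 3. Without biological replicate 3 the estimates of the brighter and dimmer probe were -0.05 and 0.09. The intervals leave room for a fall of about 0.80 and a gain of up to 0.44, so they do not show that PPARG was unaffected.

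PPARA was near the limit of detection. The processed signal of its brighter probe lay between 8.60 and 52.6 over the 12 arrays, and 5 of 6 arrays per group had it well above background. It stood at -5.23, -4.24 and -4.36 in the pH 7.0 RNAs of biological replicates 1, 2 and 3 and at -5.24, -3.61 and -5.81 in their pH 7.4 RNAs. The highest and the lowest of the 6 RNAs were both at pH 7.4, so the pH 7.0 values lay inside the range of the controls. The changes were 0.003, -0.63 and 1.44, for an estimate of 0.27 ± 0.35 (SE, n = 3 pairs; 95% interval -0.52 to 1.06; limma adjusted p = 0.815).

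In biological replicate 3, where this change was largest, the duplicate arrays of an RNA differed by 0.98 at pH 7.0 and by 1.06 at pH 7.4, and 1 of the 2 arrays at pH 7.4 was not well above background. Without biological replicate 3 the estimate had the opposite sign, -0.31. Without 1 of its control arrays the estimate was 0.09, and without 1 of its pH 7.0 arrays 0.11. Normexp with outlying local backgrounds replaced gave 0.06. The dimmer PPARA probe was above background in this sense on 1 array per group, with duplicates up to 2.83 apart. Its changes were -0.30, -0.18 and 0.09, and they are given as the files hold them and not as a measurement of PPARA. No difference in PPARA was detectable at this signal, and the interval of the brighter probe runs from a 0.70-fold to a 2.09-fold signal.

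UCP3 was dim too. The processed signal of its brighter probe lay between 3.80 and 26.0, and it was well above background on all 4 arrays of biological replicate 1, on all 4 of biological replicate 3 and on 0 of the 4 arrays of biological replicate 2. The dimmer probe was well above background on both pH 7.4 arrays of biological replicate 1 and on the 4 arrays of biological replicate 3. The brighter probe stood at -6.06, -5.87 and -5.63 in the pH 7.0 RNAs of biological replicates 1, 2 and 3 and at -5.34, -6.55 and -5.34 in their pH 7.4 RNAs. The pH 7.0 values again lay inside the range of the controls.

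The UCP3 changes were -0.71, 0.68 and -0.29 with the brighter probe and -0.90, 0.34 and 0.04 with the dimmer one. The estimates were -0.11 ± 0.29 (SE, n = 3 pairs; 95% interval -0.75 to 0.54) and -0.17 ± 0.28 (95% interval -0.79 to 0.44), with limma adjusted p of 0.924 and 0.856. Without biological replicate 2, in which no array had UCP3 well above background, they were -0.50 and -0.43. Without biological replicate 1 they had the opposite sign, 0.20 and 0.19. Leaving out 1 control array of biological replicate 1 also gave the opposite sign, 0.07 and 0.01.

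**Figure D2:**
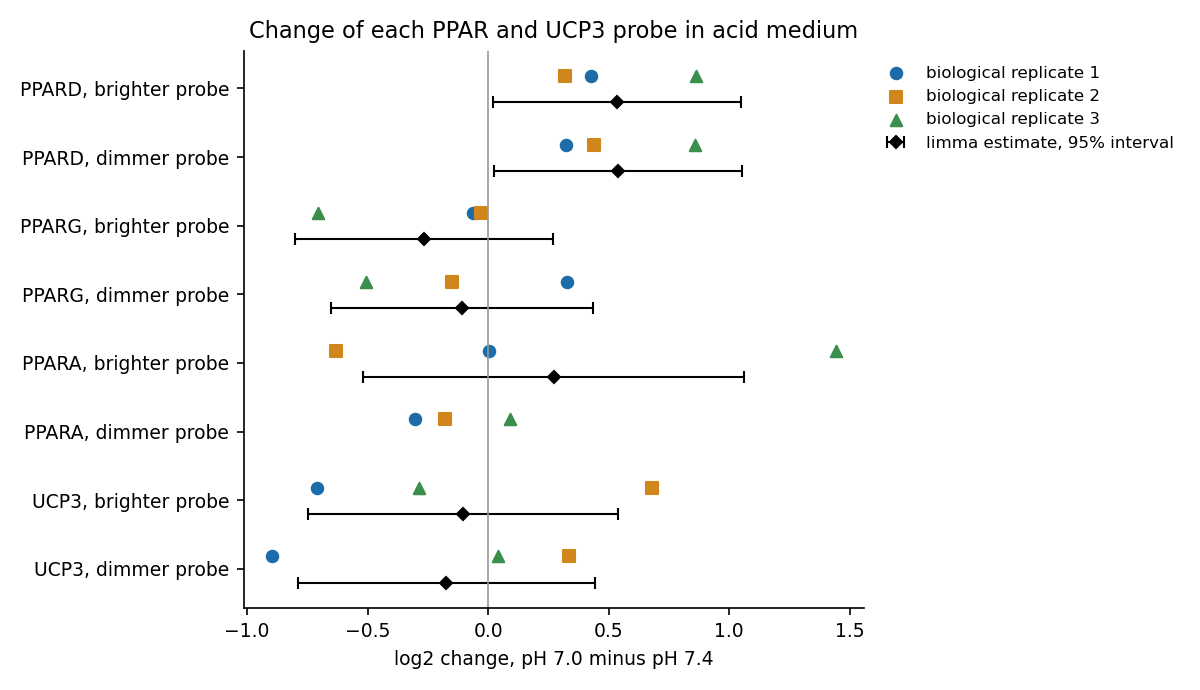
Log2 change, pH 7.0 minus pH 7.4 (x axis), of each PPAR and UCP3 probe (y axis): coloured symbols are the 3 biological replicates, and black diamonds the limma estimates with 95% intervals for the 7 tested probes. The symbols of both PPARD probes all lie above 0, from 0.32 to 0.86, and those of PPARA and UCP3 lie on both sides of it.

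Few other genes of PPAR biology carried a RefSeq name on this array. Of the list of PPAR partners and cofactors, which holds the retinoid X receptors, the PGC-1 coactivators and the corepressors, 0 of 16 genes were among the named probes. They are not analysed here. Of 20 genes of fatty acid uptake and binding, only the fatty acid receptor CD36 was, and 1 of 12 arrays had it well above background. The 4 lists with tested members held 12 different tested genes, UCP3 among them, and limma called 0 of these at an adjusted p of 0.05. At an unadjusted p under 0.05, 2 of the 12, RARA and NR4A1, were higher and 0 lower, against 6.48% higher and 5.77% lower over all tested probes.

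In the list of fatty acid oxidation and ketogenesis 3 of 29 genes were tested, and all 3 had a change above 0, with a median of 0.23 against 0.01 over all tested probes. CAT, the peroxisomal catalase, was measured on all 12 arrays and had changes of 0.19, 0.14 and 0.36 (0.23 ± 0.22, limma adjusted p = 0.725). The cytochromes CYP4A37 and CYP4A38, of the family that hydroxylates fatty acids, stood at 0.11 ± 0.27 and 0.58 ± 0.29. Both owed most of this to biological replicate 2 (0.81 and 1.34), and both were below 0 in biological replicate 3. Without biological replicate 2, CYP4A37 had the opposite sign. Under normexp background correction, the CYP4A38 value was -0.42 with the local backgrounds as given and 0.18 with outlying ones replaced.

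Of 35 other PPAR targets 4 were tested, 1 with a change above 0 and 3 below, with a median of -0.06. They were the fat cell hormones ADIPOQ (-0.19 ± 0.25) and LEP (0.01 ± 0.22), the carrier UCP2 (-0.03 ± 0.30) and the pantetheinase VNN1 (-0.09 ± 0.28). Each had changes of both signs among the 3 biological replicates, and the count above 0 went from 1 to 0 under normexp with the local backgrounds as given and to 3 once outlying local backgrounds had been replaced. APOC3, an apolipoprotein, was well above background on 0 of 12 arrays, and the glucose transporter SLC2A4 on 5.

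Of the list of uncoupling proteins and mitochondrial carriers, the 3 genes tested were UCP1, UCP2 and UCP3. UCP1, the heat-producing uncoupling protein of brown fat, was below 0 in each biological replicate (-0.27, -0.16 and -0.59) with an estimate of -0.34 ± 0.22 (limma adjusted p = 0.590), on 8 of 12 arrays well above background. Leaving out 1 control array of biological replicate 1 gave a UCP1 estimate of -0.16 and leaving out the other -0.52, and without biological replicate 3 it was -0.22. Under normexp it stood at -0.73 with the local backgrounds as given and at -0.02 with outlying ones replaced. UCP2 had the sign of the brighter UCP3 probe in biological replicates 1 and 2, at -0.91 and 0.60, but not in biological replicate 3, at 0.22. The dimmer UCP3 probe, at -0.90, 0.34 and 0.04, had the sign of UCP2 in all 3.

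Other nuclear receptors gave 3 tested genes of 39, all with a change above 0 and a median of 0.54. RARA, the retinoic acid receptor alpha, was measured on all 12 arrays and had changes of 0.26, 0.62 and 0.73, for 0.54 ± 0.23 on the brighter probe and 0.60 on the other (limma adjusted p = 0.379 for the brighter). NR4A1, an orphan receptor of the early response to many stimuli, stood at 0.86 ± 0.34 (limma adjusted p = 0.356), with -0.29 in biological replicate 1 and up to 1.60 in the others. It was well above background on 9 of 12 arrays. Normexp with the local backgrounds as given turned its sign (-0.45), and with outlying ones replaced gave 0.25. ESRRA, the estrogen-related receptor alpha, stood at 0.03 ± 0.25 and had the opposite sign without biological replicate 3. The PPARD and RARA estimates were thus of like size, and neither passed over all probes.

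**Figure D3:**
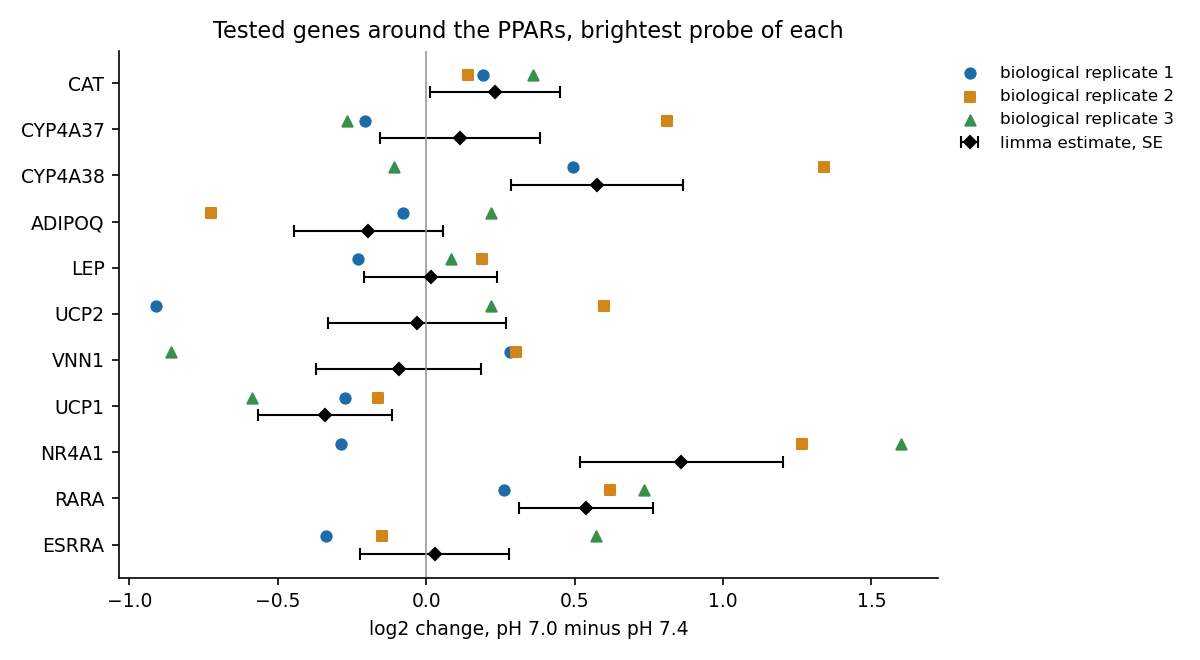
Log2 change, pH 7.0 minus pH 7.4 (x axis), of the tested genes of fatty acid oxidation, other PPAR targets, uncoupling proteins and other nuclear receptors (y axis), each by its brightest probe: coloured symbols are the 3 biological replicates and black diamonds the limma estimates with their standard errors. CAT and RARA lie above 0 and UCP1 below 0 in all 3 biological replicates, and the remaining genes have symbols on both sides of 0.

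Markers of the cell types in which PPARG and UCP3 are best known were compared between the groups. The 3 adipocyte markers on the array were ADIPOQ, LEP and UCP1. Their summed processed signal ran from 99.3 to 223.3 at pH 7.0 and from 94.6 to 202.5 at pH 7.4. The sums of marker signal, here and in the next paragraph, were not scaled to the array. Their ranges therefore mix the brightness of the arrays and the spread between replicates with the level of the markers. They cannot show whether marker levels differed between the groups. Of 7 skeletal and heart muscle markers, only TNNI3, cardiac troponin I, was well above background on all 12 arrays, and MYH2 and PLN, by their brightest probes, were on 0. The summed signal of these 7 muscle markers ran from 598.1 to 1661 at pH 7.0 and from 246.8 to 1315 at pH 7.4. TNNI3 was higher at pH 7.0 in each biological replicate (0.59, 1.60 and 1.15, limma adjusted p = 0.150). The part of these markers in the PPAR and UCP3 values was not tested.

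For the labelled cell type, OCLN and ATP1B1 were well above background on all 12 arrays, CLDN2 on 8, and UMOD, a marker of the thick ascending limb, on 0. CLDN2, a claudin of leaky tubule epithelium, was higher at pH 7.0 in each biological replicate (0.54, 1.95 and 0.97), with an estimate of 1.15 ± 0.29 (limma adjusted p = 0.174). Its estimate was 0.35 under normexp with outlying local backgrounds replaced and had the opposite sign, -0.33, with the local backgrounds as given. ATP1B1, the beta subunit of the sodium pump, had changes of -1.70, 0.09 and -0.44, for -0.69 ± 0.32 (limma adjusted p = 0.435), and stood at -0.18 without biological replicate 1. OCLN, the tight junction protein occludin, stood at 0.26 ± 0.23. The part of these markers in the PPAR and UCP3 values was not tested either. The summed signal of these 4 kidney tubule markers ran from 954.5 to 3184 at pH 7.0 and from 759.0 to 5056 at pH 7.4. Of the macrophage and leukocyte markers CD163, CD4 and CD8A, none was well above background on all 12 arrays and CD163 was on 0, with a summed signal of 15.5 to 48.7 at pH 7.0 and 15.8 to 57.7 at pH 7.4. Of 4 fibroblast markers, COL1A1 and COL1A2 were well above background on all 12 arrays. Their summed signal ran from 734.4 to 1125 at pH 7.0 and from 896.7 to 1430 at pH 7.4.

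The named genes most like each member over the 6 RNAs were taken from 597 others, as Pearson's r after the mean of each biological replicate had been subtracted. This leaves 3 independent differences, and RNAs of 1 biological replicate share a slide. CAT was the gene most like PPARD (r = 0.999), followed by ARHGAP1 and GNGT2 (both 0.99), and 25 genes had r above 0.95. BRCA2 (0.99), CA1 (0.98) and CAPZA2 (0.97) were most like PPARG, with 11 genes above 0.95. PRCD (0.99), KCNH2 (0.98) and SLC35A2 (0.98) were most like PPARA, with 12 above 0.95. RPE65, CAPS and HIPK2 (all 0.99) were most like UCP3, with 11 above 0.95. Without that subtraction ARHGAP1 (0.98) led for PPARD, with 5 genes above 0.95, and AP3B1 (0.99) for PPARG, with 11. TXNRD1 (0.93) led for PPARA, with 0 above 0.95, and HIPK2 (0.96) for UCP3, with 1.

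The PPARD estimates were above 0 under every setting tried, but several settings could not turn the sign. Those on the block, the unit, the prior or the filter left the estimate as it was. Leaving out 1 biological replicate could not turn it either, since all 3 changes were above 0. Over 26 alternatives the brighter probe ran from 0.37 to 0.64 and the dimmer from 0.38 to 0.65, and the adjusted p of limma stayed above 0.05, the lowest being 0.108 and 0.094 with arrays as the unit. In that setting 396 probes were called higher and 294 lower. It treated duplicate arrays of an RNA as nearly separate units, at a fitted correlation of 0.16. Its p therefore rests partly on hybridisation duplicates and not only on the spread between cultures. Under normexp background correction with local backgrounds as given, the median change of all tested probes moved from 0.01 to -0.19. The PPARD changes relative to that median were 0.57 and 0.60, those of PPARG 0.11 and 0.06, above 0 where they had been below it, that of PPARA -0.30 and those of UCP3 -0.52 and -0.57. Once outlying local backgrounds, on 11 spots, had been replaced, the median of all tested probes was 0.03. Relative to it, PPARD stood at 0.42 and 0.47 and PPARG at -0.32 and -0.12, below 0 again. PPARA then stood at 0.04 and the UCP3 probes at -0.07 and -0.07.

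**Figure D4:**
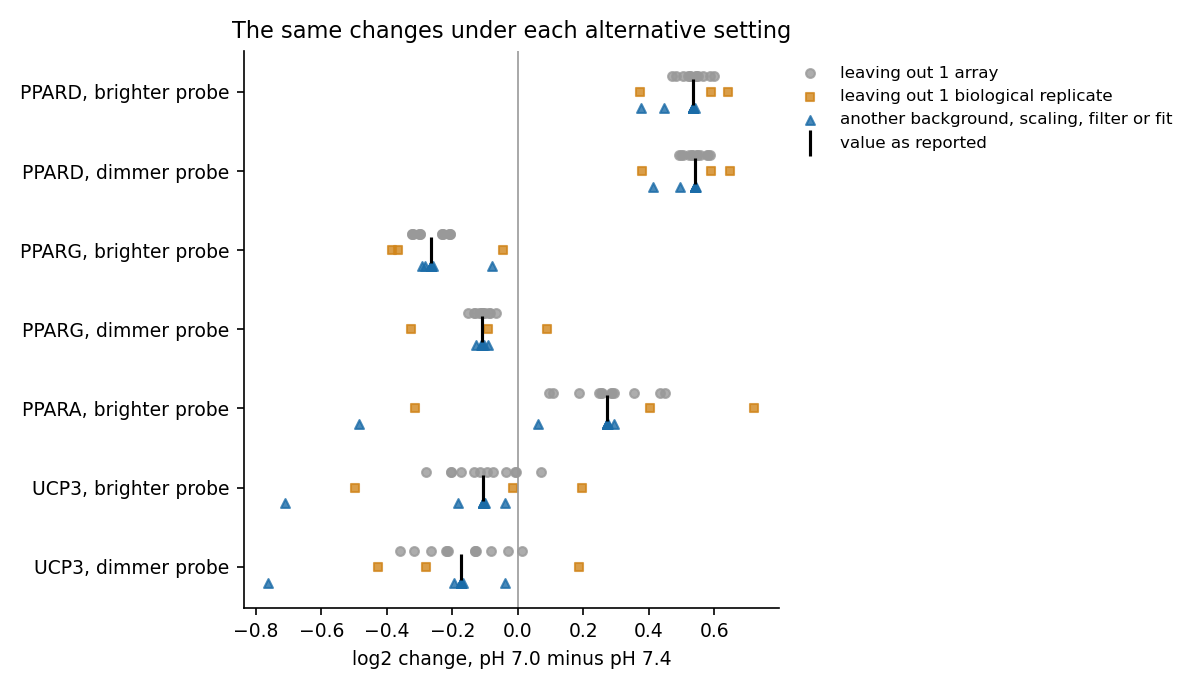
Log2 change, pH 7.0 minus pH 7.4 (x axis), of the 7 tested probes (y axis) as reported (black bar) and under each alternative: grey circles leave out 1 array, orange squares 1 biological replicate, and blue triangles use another background correction, scaling, filter or fit. The symbols of PPARD lie between 0.37 and 0.65, while those of PPARA and UCP3 spread over both sides of 0.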

How the data were processed

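Each scanner file gives, for every spot, the Cy3 intensity as processed and as the median of its pixels, and that of the local background, as Agilent Feature Extraction 10.7.3.1 wrote them per the file headers. The deposited value table holds log2 values whose scale and centring are not stated by the authors. It matched the log2 processed signal less the 75th percentile of the array and the median of the probe over the 12 arrays (slope 1.00 on every array), with column medians from -0.226 to 0.225. It needs no direction, since each column is 1 array.

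From the scanner files, control spots and 128 outlier spots were left out, saturated spots kept, and spots of a probe averaged. Arrays 1 and 2, 3 and 4, and 5 and 6 of a group were taken as biological replicates 1, 2 and 3. The series' design gives 3 replicates with 1 RNA per pH and duplicate arrays, and each set lay on its own slide, but the labels do not state this pairing, on which every value by replicate rests. Within replicates, deviations from the group mean correlated across probes at 0.394, 0.637 and 0.807. Between different replicates the values ran from -0.628 to 0.255. Since each replicate had its own slide, these values cannot tell a shared culture from a shared slide. limma 3.58.1 in R 4.3.3 (lmFit, eBayes with a constant prior) was fitted to the 6 RNAs with the biological replicate as a block, after checks on simulated data. Precision is limited by 3 pairs. Symbols came from RefSeq accessions without versions (assembly UU_Cfam_GSD_1.0), which named 1484 probes (3.40%), and no symbol was given to the others. The genome build of the array design is not given in the sources used here, so no coordinates are printed. Members, lists and the naming rule (all member probes, the 4 tested genes of lowest p in each list, the 3 genes most like each member) were chosen with earlier results of these data known. TNNI3 and other single markers were named after their values were seen. Figures used python 3.11.15 and matplotlib 3.10.9.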

Additional observations from a re-analysis of the deposited data

Results flagged for a closer look

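Of 16 sets of 6 arrays (8 probes in each pH group), 1 had a value far from the other arrays. The brighter PPARD probe stood at -0.75 on 1 control array of biological replicate 1, below the other 5 control arrays, of which the highest stood at -0.35. By chance about 1 in 20 such sets is picked out (5%), and arrays of 1 RNA are not independent. Without that array the PPARD estimate of this probe was 0.48 and of the dimmer probe 0.50, so the sign did not rest on it.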

How the results depend on the processing

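Both probes of PPARD and the brighter probe of PPARG kept the sign of their change under all 26 alternatives. Several of these could not turn it. Some left the estimate as it was, and each of these probes had changes of the same sign in all 3 biological replicates. For the PPARG probe, the changes of biological replicates 1 and 2 were smaller than its differences between duplicate arrays. When normexp took the local backgrounds as given, however, the brighter PPARG probe stood at -0.08 and the median of all probes at -0.19. PPARG thus lay 0.11 above that median. With outlying local backgrounds replaced, the same probe stood at -0.29 and the median at 0.03. The brighter PPARA probe was reversed under normexp with local backgrounds as given (-0.49), and ran from -0.31 to 0.72 when 1 biological replicate was left out, the reversal being without biological replicate 3. It ran from 0.094 to 0.45 over the arrays left out (0.094 without array 5 at pH 7.4), and was 0.06 under normexp with outlying local backgrounds replaced. The dimmer PPARG probe ran from -0.33 to 0.089 over the biological replicates left out. The UCP3 probes ran from -0.50 to 0.20 (brighter) and from -0.43 to 0.19 (dimmer) over the replicates left out, and from -0.28 to 0.070 and from -0.36 to 0.013 over the arrays left out. Under normexp the brighter and dimmer UCP3 probes stood at -0.71 and -0.76 with the local backgrounds as given. With outlying ones replaced they stood at -0.04 and -0.04. The cause of the reversals of PPARA, PPARG and UCP3 probes was not tested. No member passed an adjusted p of 0.05 in any setting. Without the replicate block the estimates were the same, the PPARD probes had unadjusted limma p of 0.112 and 0.097 (adjusted p = 0.99994), and the block changed no call. With the 12 arrays as the unit (duplicateCorrelation) 396 probes were called higher and 294 lower, with median scaling 17 and 7, with normexp as given 10 and 4, with only probes well above background on all 12 arrays 90 and 44, and with the trended robust prior 122 and 70. The fit with arrays as the unit counted duplicate arrays of an RNA as nearly separate, at a fitted correlation of 0.16. Leaving out 1 biological replicate gave 0 to 203 higher and 0 to 447 lower (203 and 74 without replicate 1, 200 and 447 without replicate 2). Without replicate 2 the SE was 0.364 for every tested member probe. That fit thus ranked these probes by the size of the change, not by their own spread. Its counts cannot show that replicate 2 had hidden changes. Leaving out 1 array gave 0 to 10 higher and 0 to 5 lower (10 and 5 with array 6 at pH 7.0 left out, 4 and 0 with array 1 at pH 7.4 left out). The normexp with outlying local backgrounds replaced was added after seeing the data. PPARA and UCP3 are limited by signal over background. The limit on all 12 arrays left no test of them.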

Other observations

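The receptors PPARD and PPARG can be set against each other on the same arrays, where the scaling of an array cancels. This contrast was chosen after the values had been seen. The mean change of both PPARD probes was 0.37, 0.38 and 0.86 in biological replicates 1, 2 and 3, and that of both PPARG probes was 0.13, -0.09 and -0.61. The change of PPARD exceeded that of PPARG by 0.24, 0.47 and 1.47, on average 0.72 ± 0.65 (SD, n = 3 pairs). An exact two-sided sign-flip permutation test gave p = 0.25, the smallest p that 3 pairs can give. Any 3 differences of the same sign give this p, so the test adds nothing to their signs. Biological replicate 3 had the largest PPARD change and the lowest PPARG change, and it supplied most of the average.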
